A study of Mus musculus with 2 samples.

Results

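The genes described here make fatty acids, join them into triglyceride, coat the lipid droplet and break triglyceride down again. They were compared between PDGFRa-positive stromal cells of Sox9 floxed and of Sox9 PreASKO mice. A list of 51 genes was taken by symbol from the deposited table of 23647 genes, and 50 had a row. Lpl, the lipoprotein lipase gene, was not analysed here. Of the 50, 46 had a mean of at least 1 CPM, the count scaled to the library total, over both libraries and are called measured below. Levels set against each other are in the order floxed, then PreASKO. Elovl3, Mogat1, Cidec and Cidea lay under that level.

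Both libraries came from the stromal vascular fraction of a subcutaneous depot, the inguinal white fat, which holds the cells left after adipocytes float off a collagenase digest. The cells were positive for PDGFRa, a receptor carried by adipocyte precursors and other fibroblasts. Mice of both genotypes were labelled male and 3 weeks old, and all received doxycycline at postnatal day 1. The floxed mice, also labelled WT, carry a Sox9 allele that recombination can delete. The PreASKO mice are labelled as the knockout of the same gene, and the promoter that drives their recombination is not given in the sources used here. Each genotype had 1 library from 3 pooled mice, so the spread between animals is unknown and no difference below has a test or a replicate check. The intervals given are exact 95% intervals that cover counting error only.

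Summed counts came to 61761645 for the floxed and 37597048 for the PreASKO library. Sox9 itself reached 28.6 CPM in the floxed and 17.0 CPM in the PreASKO library, and Meis1, a factor named with Sox9 in the study's title, 30.4 against 19.5 CPM. Xist, which female cells transcribe, was found at 3.24 against 745 CPM although both pools are labelled male. The Y-linked genes were present in both libraries, with Ddx3y at 40.6 against 39.5 CPM, Uty at 12.5 against 9.12 CPM, Kdm5d at 20.2 against 10.9 CPM and Eif2s3y at 17.6 against 11.0 CPM. Genotype is the only difference between the pools that the labels used here record, but the measured Xist level differed as well. A difference in the sex of the pooled cells cannot be told apart from genotype, because no comparison below could be made without the library concerned. The sorting marker Pdgfra was at 716 against 603 CPM, and 8 stromal genes including it, Cd34 and Ly6a summed to 10757 and 11646 CPM. Markers of other cells differed, and their sums are over every listed gene with a row. All 15 measured macrophage markers were higher in the PreASKO library, summing to 1583 and 2979 CPM. Of 11 measured endothelial markers, 9 were higher, summing to 483 and 502 CPM. All 8 measured genes of mature adipocytes that do not handle lipid were lower, and the 12 of that list with a row summed to 841 and 534 CPM. Most of that sum was Car3, a carbonic anhydrase gene, at 716 against 477 CPM. Adipoq, the adiponectin gene, was at 41.2 against 12.8 CPM and Retn, the resistin gene, at 1.75 against 0.505 CPM, while Lep was at 0 in the floxed library and 0.346 CPM in the PreASKO library. Sums of other markers were 4.31 and 6.81 CPM for brown or beige adipocytes, 12.6 and 14.8 for muscle, 50.1 and 52.1 for Schwann cells, and 0.194 and 0.638 for epithelium. The part of these cells in the lipid gene results was not tested. In a mixed sample, fewer cells of a type and less RNA per cell cannot be told apart.

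New fatty acids are built from cytosolic acetyl-CoA by a short chain of enzymes, then desaturated and lengthened. They are joined to a glycerol phosphate backbone in the endoplasmic reticulum and stored as triglyceride in droplets coated by perilipins. Lipases release them again when energy is needed. Precursor cells carry out little of this storage, and the whole programme is switched on as they become adipocytes, under PPARgamma, C/EBP factors and the sterol-sensing factors SREBP-1 and SREBP-2.

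To show where the members start, the RefSeq promoter of 1 gene per role was read, 250 bases before to 50 after the start of transcription. The genes are those with the largest difference in each role among members with an entry in the promoter table and a mean of at least 5 CPM, and where the table gives several starts, as for Acsl1, Gpam and Lipe, the one with the longest motif match was taken. A total of 41 members matched that table, with 58 promoters. Positions are on GRCm38.p6, and each sequence runs 5′ to 3′ in the direction of transcription. Capitals mark every match, on either strand, to the sterol regulatory element TCACCCCAC, the E-box CACGTG, the CCAAT box and the GC box GGGCGG.
Fasn, de novo synthesis, chr11:120824498-120824797, minus strand: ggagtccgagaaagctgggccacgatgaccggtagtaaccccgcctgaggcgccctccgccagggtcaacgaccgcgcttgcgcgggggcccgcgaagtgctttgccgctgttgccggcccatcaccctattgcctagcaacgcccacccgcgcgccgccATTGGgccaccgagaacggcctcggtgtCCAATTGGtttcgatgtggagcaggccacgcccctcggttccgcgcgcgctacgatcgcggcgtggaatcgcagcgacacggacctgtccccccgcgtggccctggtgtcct
Fads2, desaturation, chr19:10101454-10101753, minus strand: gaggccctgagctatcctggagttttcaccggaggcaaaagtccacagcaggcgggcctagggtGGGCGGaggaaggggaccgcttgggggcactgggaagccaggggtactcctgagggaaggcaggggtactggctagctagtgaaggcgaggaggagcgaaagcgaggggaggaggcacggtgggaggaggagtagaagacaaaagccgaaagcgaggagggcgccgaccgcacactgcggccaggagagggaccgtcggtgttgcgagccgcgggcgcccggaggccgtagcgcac
Acsl1, fatty acid activation, chr8:46490716-46491015, plus strand: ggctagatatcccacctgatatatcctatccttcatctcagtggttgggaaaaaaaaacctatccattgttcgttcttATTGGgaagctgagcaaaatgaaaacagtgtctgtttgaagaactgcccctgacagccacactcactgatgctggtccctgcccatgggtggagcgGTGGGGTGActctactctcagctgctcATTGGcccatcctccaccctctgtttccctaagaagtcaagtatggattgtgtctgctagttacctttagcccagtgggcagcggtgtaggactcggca
Gpam, triglyceride assembly, chr19:55099428-55099727, minus strand: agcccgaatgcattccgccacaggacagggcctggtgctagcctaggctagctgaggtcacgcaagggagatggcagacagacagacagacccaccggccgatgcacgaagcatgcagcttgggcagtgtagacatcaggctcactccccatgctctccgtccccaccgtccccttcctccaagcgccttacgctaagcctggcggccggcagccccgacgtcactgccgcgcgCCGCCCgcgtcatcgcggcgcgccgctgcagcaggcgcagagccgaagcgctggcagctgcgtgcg
Plin4, droplet coat, chr17:56109733-56110032, minus strand: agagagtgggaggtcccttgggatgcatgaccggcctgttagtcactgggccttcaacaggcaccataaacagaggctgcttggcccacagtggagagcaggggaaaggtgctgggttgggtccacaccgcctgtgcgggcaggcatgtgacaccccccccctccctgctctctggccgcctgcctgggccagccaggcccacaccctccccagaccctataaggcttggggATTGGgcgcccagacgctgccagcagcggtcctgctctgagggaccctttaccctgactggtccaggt
Lipe, lipolysis, chr7:25395938-25396237, minus strand: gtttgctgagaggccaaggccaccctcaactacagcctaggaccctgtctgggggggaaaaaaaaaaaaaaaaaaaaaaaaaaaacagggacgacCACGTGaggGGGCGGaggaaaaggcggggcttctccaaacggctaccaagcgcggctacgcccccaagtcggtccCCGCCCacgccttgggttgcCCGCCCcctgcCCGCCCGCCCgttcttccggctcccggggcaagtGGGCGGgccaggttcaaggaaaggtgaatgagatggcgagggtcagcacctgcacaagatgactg

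The Acsl1 promoter, which belongs to 1 of the 2 Acsl1 starts in the table, was the single member promoter with TCACCCCAC, on the reverse strand. That was 1.72% of member promoters, against 0.551% of all 32851 promoters in the table. With 1 free base, TCACNCCAC was found in 2 member promoters, those of Acsl1 and of Mlxipl, which is 3.45% against 1.24% of all. CACGTG was found in 13.8% of member promoters and 7.15% of all, and GGGCGG in 53.4% and 35.7%. CCAAT occurred in 39.7% and 37.4%, and in the Fasn promoter the forward and reverse forms overlap in a single CCAATTGG run. The DR1 element bound by PPAR receptors, AGGTCA repeated after 1 free base, was found in none of the 58 member promoters and in 0.0396% of all. Shares were also counted per gene with any of its starts, for the 41 members and for all 27025 genes of the promoter table, measured here or not. They were 2.44% and 0.614% for TCACCCCAC, 19.5% and 8.09% for CACGTG, 65.9% and 38.2% for GGGCGG, and 53.7% and 41.1% for CCAAT. Members had more starts per gene, 58 for 41 genes against 32851 for 27025, which by itself raises their share per gene. Of the measured members with a promoter entry, CACGTG was found in 4 of 28 lower and 4 of 11 higher genes. For the same lower and higher genes the numbers were 12 and 9 for CCAAT, 19 and 8 for GGGCGG, and 1 and 0 for TCACCCCAC. These matches describe letters in a window and show no binding.

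Across the measured members, 35 of 46 (76.1%) were lower in the PreASKO library, where 54.5% of all 13684 measured genes were lower. The median log2 ratio, PreASKO over floxed on the log2(CPM + 1) scale, was -0.30 for the members and -0.041 for all measured genes. At least 2-fold lower were 2 members, Gpd1 and Scd2, against 1.52% of all measured genes, and none was 2-fold higher, against 2.11%. At least 1.5-fold lower were 11 members, against 8.18% of all, and 1 member, Plin4, was at least 1.5-fold higher, against 7.89%. The counting interval of the ratio lay wholly below 1 for 32 members and wholly above 1 for 6, against 41.4% and 33.4% of all measured genes. At this depth an interval clear of 1 is therefore common and does not single a gene out. The mature adipocyte genes that do not handle lipid were lower in the same library (8 of 8, median log2 ratio -0.85), and their part in the lower members was not tested.

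**Figure D1:**
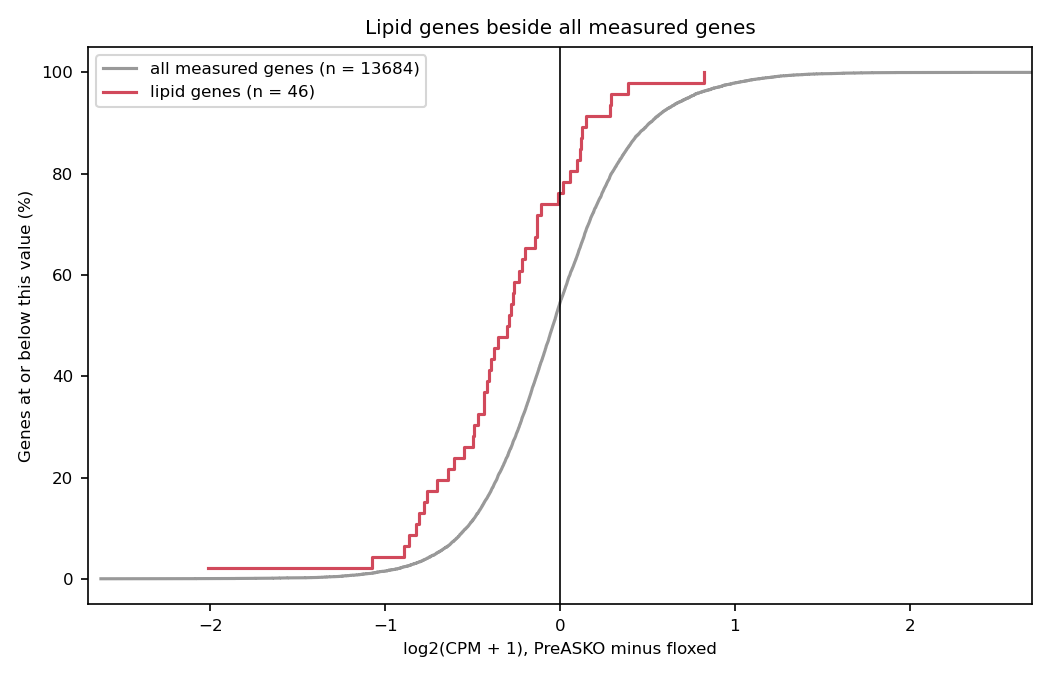
Cumulative share of genes (vertical axis, percent) by log2(CPM + 1) in PreASKO minus floxed (horizontal axis), for the 46 measured lipid genes and all 13684 measured genes, each from 1 library per genotype. The curve of the lipid genes lies left of the other, with 76.1% of them below 0 against 54.5%.

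The roles differed in how far they lay from all genes. Medians of the log2 ratio were -0.43 for desaturation and elongation, -0.37 for de novo synthesis, -0.29 for triglyceride assembly and -0.23 for lipolysis. Those of the droplet coat and of uptake and activation were -0.079 and 0.016, near the -0.041 of all measured genes. The medians depended on the count column, which is explained further on. With the raw count alone they were -1.12 for desaturation and elongation, -0.12 for de novo synthesis, -0.32 for triglyceride assembly and -0.05 for lipolysis. The raw median of lipolysis is the value of Lipe, from 2 and 1 raw counts in floxed and PreASKO. That of de novo synthesis lies between Fasn and Acss2, the latter with 2 and 0 raw counts. That of desaturation and elongation lies between Scd2 and Elovl6, the latter with 18 and 1 raw counts. For triglyceride assembly it lies between Dgat2 and Gpam, and Gpam had 2 and 0 raw counts. With the repeat-distributed count alone the medians were, for the same roles, -0.40, -0.25, -0.62 and -0.25. Summed over their members, desaturation and elongation genes held 1651 CPM in the floxed and 1070.4 CPM in the PreASKO library, while droplet coat genes held 353 and 358 CPM. With 1 library per genotype these differences between roles have no test. Split by their mean level, 18 of 23 members were lower above the middle level and 17 of 23 beneath it, at medians of -0.30 and -0.28.

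**Figure D2:**
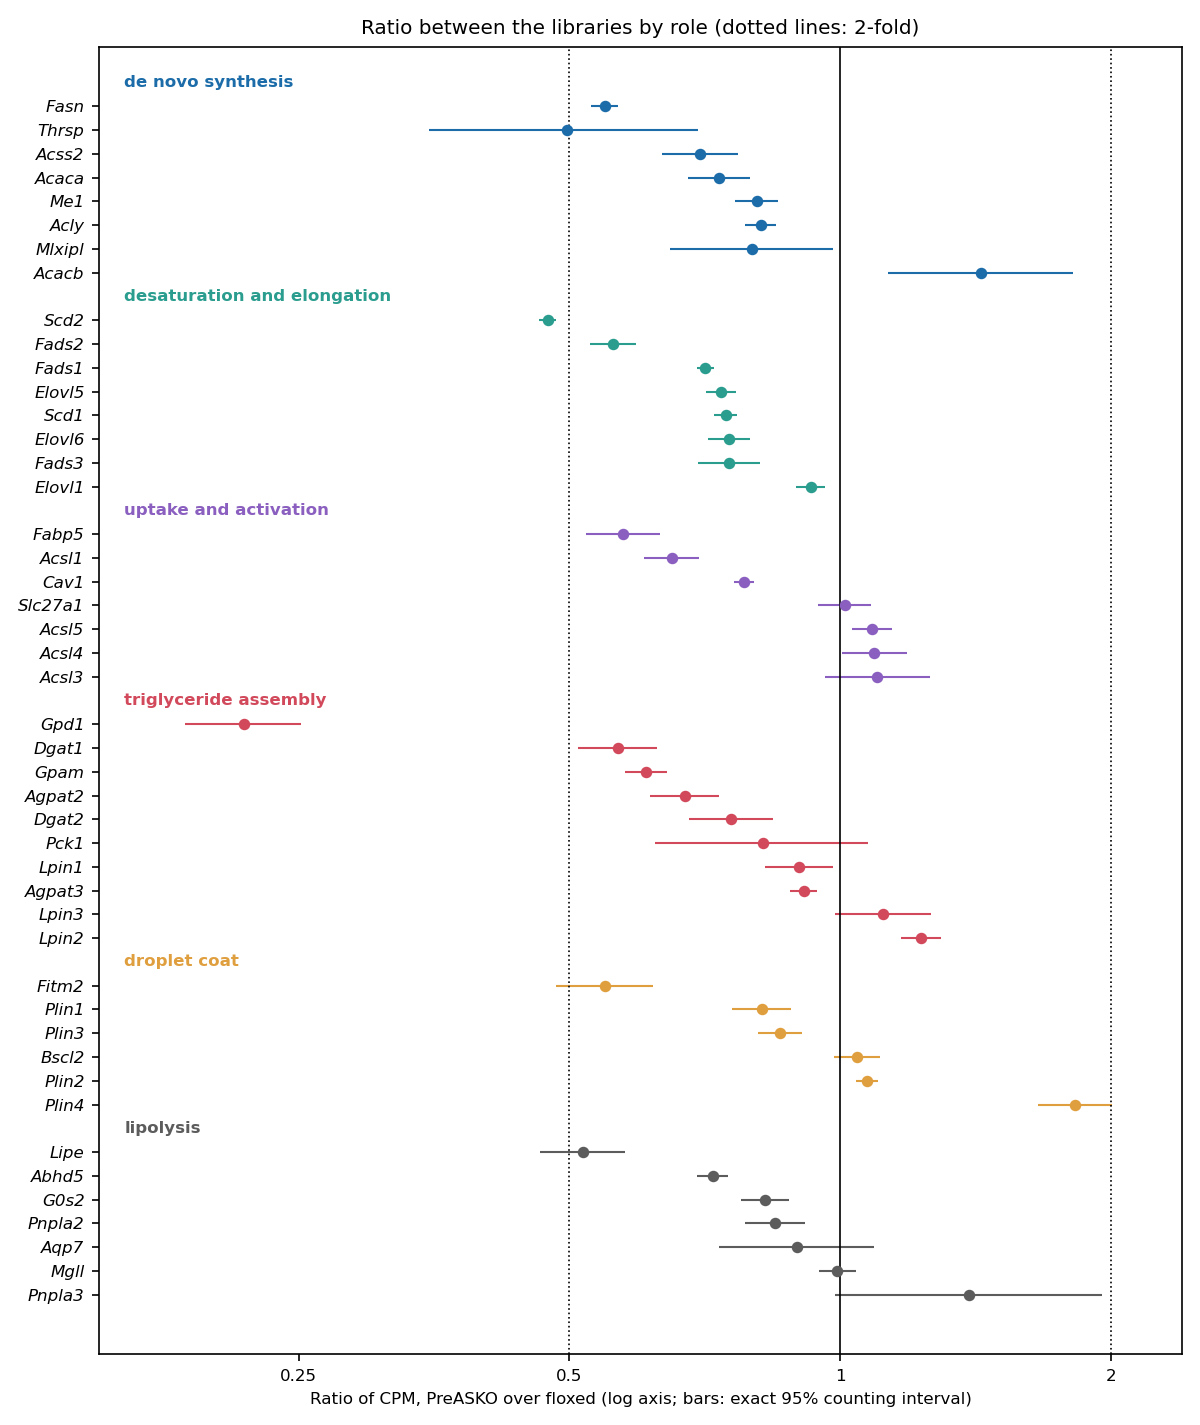
Ratio of CPM, PreASKO over floxed (horizontal log axis), of each of the 46 measured lipid genes, grouped by role, with exact 95% counting intervals as bars and dotted lines at 2-fold. Gpd1 lies far left at a ratio of 0.217, all 8 desaturation and elongation genes lie left of 1, and Plin4 lies farthest right at 1.83.

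In de novo synthesis, 7 of 8 genes were lower in the PreASKO library. The largest log2 ratio was that of Fasn, the fatty acid synthase that assembles palmitate (mm10 chromosome 11, bases 120805958 to 120825166, Entrez gene 14104). Fasn was measured at 209.8 CPM in the floxed and 115 CPM in the PreASKO library, which is a ratio of 0.547 (95% counting interval 0.528 to 0.566). The raw column of the table taken alone gave a log2 ratio of -0.047 for Fasn. The enzymes that feed it differed less. Acly, which splits citrate into acetyl-CoA, reached 124 against 101 CPM in floxed and PreASKO, for a ratio of 0.816 (0.785 to 0.849). Acaca, the acetyl-CoA carboxylase that makes malonyl-CoA for synthesis, was found at 32.6 against 23.9 CPM, with a ratio of 0.733 (0.677 to 0.793). Acss2, which makes acetyl-CoA from acetate, was at 22.8 against 15.9 CPM, which is a ratio of 0.699 (0.634 to 0.769). Me1, a malic enzyme supplying NADPH, had a level of 60.7 against 49.0 CPM, for a ratio of 0.808 (0.763 to 0.854).

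The exception was Acacb, the mitochondrial form of the carboxylase, whose malonyl-CoA restrains fatty acid oxidation. It was measured at 2.54 CPM in the floxed and 3.64 CPM in the PreASKO library, from 157 and 137 counts, with a ratio of 1.43 (1.13 to 1.81). The carboxylase genes thus pointed in opposite directions, with intervals that do not overlap, although Acacb was near the lower limit of measurement. Both regulators in the group were scarce in either library. Mlxipl, which encodes the glucose-responsive factor ChREBP, was at 4.63 against 3.70 CPM and Thrsp, a lipogenic cofactor, at 2.46 against 1.22 CPM. For Thrsp this is a CPM ratio of 0.497 (0.349 to 0.696) from 152 and 46 counts, and the pseudocount brings its log2 value to -0.64.

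All 8 measured desaturation and elongation genes were lower in the PreASKO library. Scd2, a stearoyl-CoA desaturase that makes monounsaturated fatty acids (mm10 chromosome 19, bases 44293676 to 44306864, Entrez gene 20250), had the highest level of the members in the floxed library, in CPM and per kilobase of exon. It was found at 563 CPM in the floxed and 266 CPM in the PreASKO library, which is a ratio of 0.473 (95% counting interval 0.463 to 0.484). Its neighbour Scd1, the desaturase of mature fat and liver (mm10 chromosome 19, bases 44394450 to 44407709, Entrez gene 20249), was at 227 against 169.7 CPM, for a ratio of 0.746 (0.724 to 0.769). The ratio of Scd2 was lower than that of Scd1 by more than counting error. These genes are close in sequence, and how reads matching both were divided is not stated, so the split between them is uncertain.

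The desaturases of polyunsaturated fatty acids followed. Fads2, the delta-6 desaturase, had a level of 72.0 CPM in the floxed and 40.3 CPM in the PreASKO library, with a ratio of 0.560 (0.527 to 0.593). Fads1, the delta-5 desaturase, was at 420.1 against 297 CPM, which is a ratio of 0.708 (0.692 to 0.724). Fads3, a related desaturase gene, was measured at 32.4 against 24.4 CPM, for a ratio of 0.753 (0.695 to 0.814). For Fads3 the raw column alone gave a log2 ratio of 0.054. All 3 genes lie side by side on chromosome 19.

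The elongases add carbons to existing chains, and the ratios of Elovl5 and Elovl6 were close to those of Scd1 and Fads3. Elovl6, which extends palmitate to stearate, reached 69.9 CPM in the floxed and 52.6 CPM in the PreASKO library, with a ratio of 0.752 (0.713 to 0.794). Elovl5, an elongase of polyunsaturated chains, was found at 142 against 105 CPM, which is a ratio of 0.737 (0.710 to 0.766). Elovl1, which makes very long saturated chains, was close to equal at 124 against 115 CPM, for a ratio of 0.928 (0.893 to 0.963). Elovl3, an elongase tied to brown fat and skin glands, had 0 counts in floxed and 2 in PreASKO, so no ratio is given. With a floor of 3 counts, a floxed count of 0 allows a level of up to 0.0486 CPM.

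**Figure D3:**
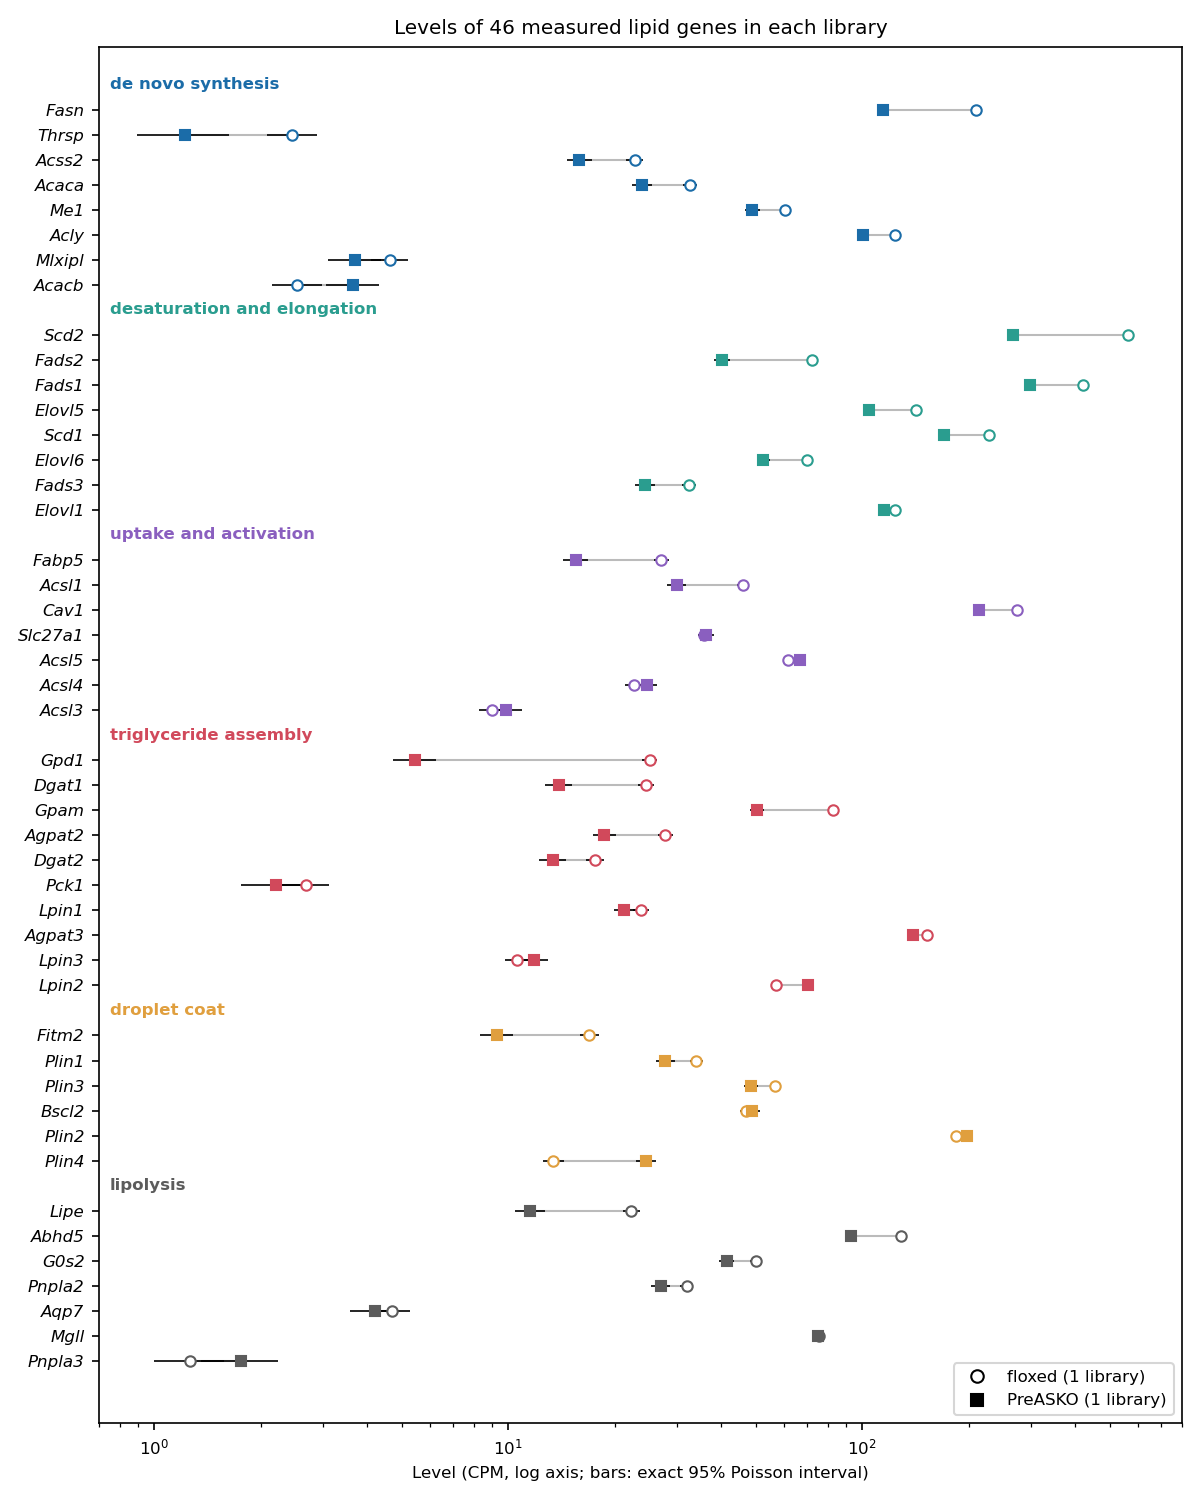
Level in CPM (horizontal log axis) of each of the 46 measured lipid genes in the floxed library (open circles) and the PreASKO library (filled squares), grouped by role and sorted by ratio, with exact 95% Poisson intervals as bars. Squares lie left of circles for 35 genes, with the widest gap at Gpd1, 25.1 against 5.45 CPM, and the reverse order is clearest at Plin4, 13.4 against 24.5 CPM.

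Triglyceride assembly had the largest single difference. Gpd1, the cytosolic glycerol-3-phosphate dehydrogenase that supplies the backbone of triglyceride (mm10 chromosome 15, bases 99717587 to 99725014, Entrez gene 14555), was at 25.1 CPM in the floxed and 5.45 CPM in the PreASKO library. The Poisson intervals were 23.8 to 26.4 CPM in floxed and 4.73 to 6.25 CPM in PreASKO, and the ratio was 0.217 (95% counting interval 0.187 to 0.252). Pck1, the carboxykinase that supplies glycerol phosphate from non-sugar sources in fat, was scarce at 2.69 against 2.21 CPM, with an interval of the ratio from 0.623 to 1.08 that includes 1.

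The 3 member acyltransferases that load the backbone were lower to differing degrees. Gpam, the mitochondrial enzyme of the first step, had a level of 82.9 CPM in the floxed and 50.4 CPM in the PreASKO library, with a ratio of 0.608 (0.577 to 0.641). Agpat2, the second-step enzyme whose loss causes lipodystrophy in humans, was measured at 27.8 against 18.7 CPM, which is a ratio of 0.672 (0.615 to 0.734). Agpat3, a relative more active in membrane phospholipids, was closer to equal, at 153 against 139 CPM, for a ratio of 0.911 (0.880 to 0.942). Related acyltransferases outside the members, named after their values were seen, were not uniform. Agpat4 was higher, at a ratio of 1.38 (1.32 to 1.43), as was Agpat5, at 1.11 (1.004 to 1.22), while Agpat1 had a ratio of 0.956 (0.909 to 1.01), Agpat6 of 0.735 (0.691 to 0.782) and Agpat9 of 0.723 (0.538 to 0.964). Both enzymes of the last, triglyceride-forming step were lower. Dgat1 was at 24.6 against 13.9 CPM, with a ratio of 0.566 (0.512 to 0.626). Dgat2 reached 17.6 against 13.4 CPM, which is a ratio of 0.757 (0.680 to 0.842).

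The lipins, phosphatidate phosphatases between these steps, were mixed. Lpin1, the main form of adipose tissue, was found at 23.7 CPM in the floxed and 21.3 CPM in the PreASKO library, for a ratio of 0.900 (0.825 to 0.982). Lpin2 was higher in the PreASKO library, at 57.1 against 70.2 CPM, with a ratio of 1.23 (1.17 to 1.29). Lpin3 was at 10.6 against 11.8 CPM, with an interval of 0.988 to 1.26 that includes 1. Mogat1, a monoacylglycerol acyltransferase, had 10 counts in each library.

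The droplet coat genes were split, with 3 lower and 3 higher of 6 measured. Plin4, a perilipin of nascent droplets in adipocytes (mm10 chromosome 17, bases 56100587 to 56109948, Entrez gene 57435), was the measured member with the highest ratio, at 13.4 CPM in the floxed and 24.5 CPM in the PreASKO library and a ratio of 1.83 (95% counting interval 1.66 to 2.01). Plin1, the perilipin of the mature adipocyte droplet that gates lipolysis, had a level of 34.0 against 27.8 CPM, which is a ratio of 0.818 (0.759 to 0.881). Plin2, the perilipin of most other cells, macrophages included, had the highest level per kilobase of the coat genes and was close to equal in CPM at 184 against 197 CPM, for a ratio of 1.07 (1.04 to 1.10). Plin3, a widely expressed perilipin, was measured at 56.6 against 48.5 CPM, with a ratio of 0.857 (0.809 to 0.907). Macrophage markers, which summed to 1583 and 2979 CPM, were higher in the library with more Plin2 and Plin4 RNA, and their part was not tested.

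Of the genes that shape droplets, Fitm2, a protein of the endoplasmic reticulum needed for droplets to bud, was lower at 17.0 CPM in the floxed and 9.28 CPM in the PreASKO library, which is a ratio of 0.548 (0.484 to 0.619). Bscl2, which encodes seipin, reached 47.0 against 49.0 CPM, with an interval of the ratio from 0.984 to 1.11 that includes 1. The droplet-fusing CIDE genes were scarce. Cidec, the form of white adipocytes, had 62 and 25 counts, which is 1.004 against 0.665 CPM. Cidea, the form typical of brown and beige fat, had 0 counts in floxed and 15 in PreASKO. Its PreASKO level was 8.21-fold that of a floor of 3 counts in the floxed library, while the exact counting interval of the ratio starts lower, at 5.89. Other genes of brown fat were low in the same libraries, with Ucp1 at 0.0648 against 0.585 CPM, Cox8b at 0.405 against 2.39 CPM, Dio2 at 0.291 against 0.585 CPM and Ppargc1a at 0.486 against 0.665 CPM. Cox7a1, the highest of them in CPM, was at 3.06 against 2.58 CPM, with an interval of the ratio from 0.653 to 1.08 that includes 1. Their part in the Cidea count was not tested.

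Lipolysis genes were lower in 6 of 7 cases. Lipe, the hormone-sensitive lipase that cuts diacylglycerol (mm10 chromosome 7, bases 25379527 to 25398486, Entrez gene 16890), had the largest difference, at 22.3 CPM in the floxed and 11.5 CPM in the PreASKO library and a ratio of 0.518 (95% counting interval 0.464 to 0.577). The raw column alone gave a log2 ratio of -0.05 for Lipe. Pnpla2, the triglyceride lipase ATGL of the first step, was found at 31.9 against 27.0 CPM, for a ratio of 0.846 (0.784 to 0.913). Its activator Abhd5 was at 129 against 93.1 CPM, with a ratio of 0.722 (0.693 to 0.751). Its inhibitor G0s2 was at 50.1 against 41.4 CPM, which is a ratio of 0.826 (0.777 to 0.878). The lipase, its activator and its inhibitor thus lay on the same side of 1.

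The last lipase, Mgll, which cuts monoacylglycerol, was equal within counting error at 75.6 CPM in the floxed and 75.1 CPM in the PreASKO library, for a ratio of 0.993 (0.947 to 1.04). Aqp7, the channel through which glycerol leaves fat cells, had a level of 4.70 against 4.20 CPM, with an interval from 0.733 to 1.09. Pnpla3, a relative of ATGL, was the scarcest measured gene of this role at 1.26 against 1.76 CPM, with an interval from 0.986 to 1.95. Both intervals include 1, so neither difference was detectable at this depth.

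Uptake and activation genes divided, 3 lower and 4 higher of 7 measured. Fabp5, a cytosolic fatty acid carrier, was measured at 27.1 CPM in the floxed and 15.5 CPM in the PreASKO library, with a ratio of 0.574 (95% counting interval 0.522 to 0.631), a value that is uncertain because near-identical pseudogenes could take part of its reads. Cav1, the caveolin of the plasma membrane, had the highest level of the role, per kilobase as well, at 274 against 214 CPM, which is a ratio of 0.782 (0.761 to 0.803). Slc27a1, a fatty acid transport protein, was equal within counting error at 35.8 against 36.2 CPM.

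The acyl-CoA synthetases, which activate fatty acids for use, went separate ways. Acsl1, the main form of adipocytes, reached 46.03 CPM in the floxed and 29.9 CPM in the PreASKO library, for a ratio of 0.649 (0.606 to 0.696). Acsl5 was found at 61.6 against 66.8 CPM, with a ratio of 1.08 (1.03 to 1.14), and Acsl4, which prefers arachidonate, at 22.6 against 24.7 CPM, which is a ratio of 1.09 (1.004 to 1.19). Acsl3, a form found on nascent droplets, was at 8.99 against 9.89 CPM, with an interval from 0.963 to 1.26 that includes 1. Of the synthetases, Acsl1 alone was lower in this main measure, and the other 3 had ratios slightly over 1.

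Levels of different genes were compared per kilobase of exon, using the union of exons in the GENCODE M21 annotation. In the floxed library the highest levels were those of Scd2 at 103, Fads1 at 87.3 and Cav1 at 79.5 CPM per kilobase. In the PreASKO library Cav1, at 62.2, and Fads1, at 61.8 CPM per kilobase, led with a gap within counting error. They were followed by Plin2 at 56.2 and Scd2 at 48.7. Scd2 thus moved from the first to the fourth place among members. On the same scale Plin2 exceeded Plin1 in both libraries, at 52.5 and 56.2 against 7.32 and 5.98 CPM per kilobase in floxed and PreASKO.

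Regulators of these genes were read from a list of 14, of which 9 (64.3%) were lower in the PreASKO library, against 54.5% of all measured genes. Their median log2 ratio of -0.048 was near the -0.041 of all measured genes. The counting interval lay wholly below 1 for 6 of them and wholly above 1 for 4. The 3 largest differences all pointed down. Srebf1, which encodes SREBP-1, the activator of fatty acid synthesis genes, had a level of 87.2 CPM in the floxed and 47.7 CPM in the PreASKO library, for a ratio of 0.547 (0.518 to 0.577). Srebf2, which encodes the cholesterol-oriented SREBP-2, was measured at 204 against 115 CPM, with a ratio of 0.565 (0.545 to 0.585), and Pparg had a ratio of 0.603 (0.579 to 0.629). The SREBP retention gene Insig2 pointed the other way, at 34.8 against 47.0 CPM, as did Nr1h3, which encodes the oxysterol receptor LXRalpha, at 16.4 against 21.0 CPM. Insig2 and Nr1h3 were named after their values were seen. Of 20 cholesterol synthesis and uptake genes, a textbook set of SREBP-2 targets, 18 were lower, with a median of -0.64. The largest of these differences, in Hsd17b7, Fdft1 and Dhcr7, were log2 ratios of -1.04 each.

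Other genes of fatty acid and triglyceride metabolism were more often higher than lower. Of 32 measured, 19 were higher and 13 (40.6%) lower, where 54.5% of all measured genes were lower. Their median log2 ratio was 0.12. Fabp4, a fatty acid carrier of adipocytes, macrophages and endothelium, was the only one of them at least 2-fold higher, at a log2 ratio of 1.04. Acss1, the mitochondrial acetyl-CoA synthetase, reached 14.8 CPM in the floxed and 28.3 CPM in the PreASKO library, which is a ratio of 1.91 (1.75 to 2.09). Hsd17b12, which works with the elongases in lengthening chains, was found at 37.7 against 20.1 CPM, for a ratio of 0.532 (0.489 to 0.578). Tecr, which completes each round of lengthening, was at 371 against 259.9 CPM, with a ratio of 0.701 (0.684 to 0.718). Among genes of fatty acid import, Cd36 was at 205 against 244 CPM, which is a ratio of 1.19 (1.16 to 1.22), and Vldlr at 41.4 against 55.6 CPM, for a ratio of 1.34 (1.27 to 1.42). Angptl4, a secreted inhibitor of lipoprotein lipase, was measured at 253 against 385 CPM, with a ratio of 1.52 (1.49 to 1.56). Tecr, Cd36, Vldlr and Angptl4 were named after their values were seen. Macrophage and endothelial markers, given above, were higher in the same library, and both cell types make Cd36 and Fabp4. Their part in these values was not tested.

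Fatty acid oxidation genes lay near all genes, with 10 of 19 measured lower and a median log2 ratio of -0.0026. Among the larger differences, the peroxisomal enzyme gene Ehhadh reached 6.38 CPM in the floxed and 2.87 CPM in the PreASKO library, which is a ratio of 0.450 (0.361 to 0.558). Eci1, a mitochondrial isomerase, was at 22.6 against 17.1 CPM. Cpt1a, the gatekeeper of mitochondrial import, which was named after its values were seen, was at 117 against 134 CPM, for a ratio of 1.14 (1.10 to 1.18). The share of lower genes was thus 52.6% for oxidation and 76.1% for all measured members, a difference for which these data hold no test.

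**Figure D4:**
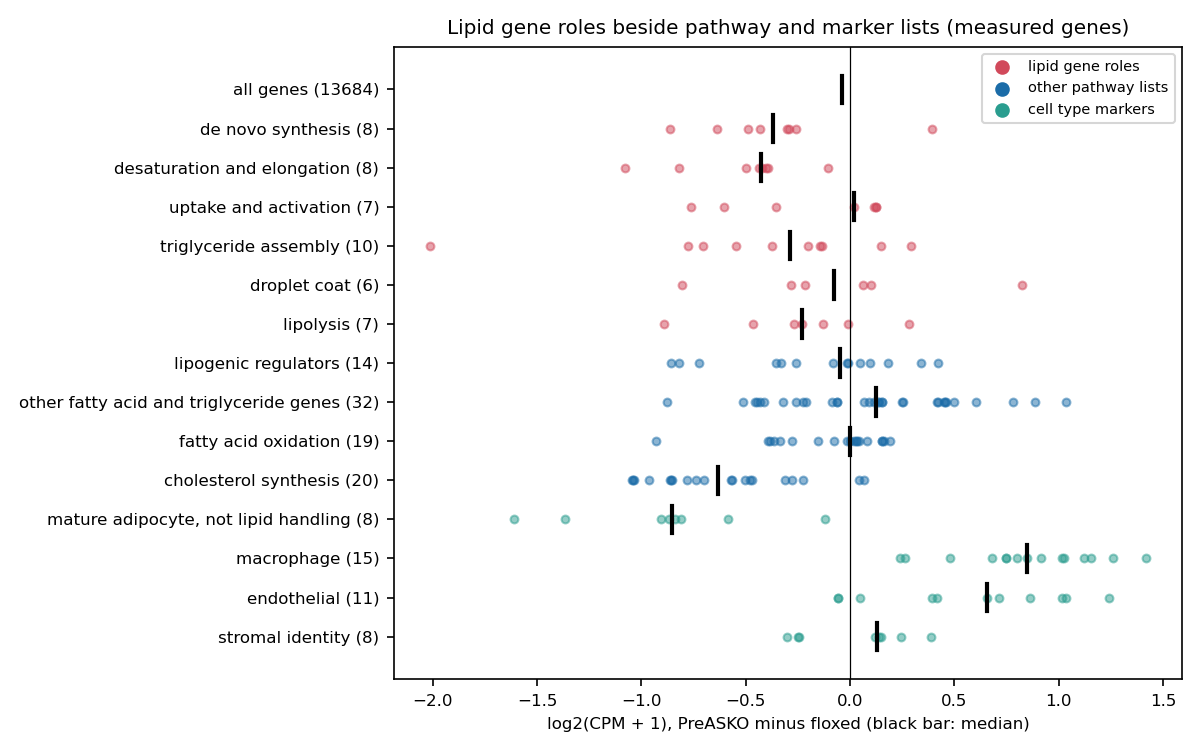
Log2(CPM + 1) in PreASKO minus floxed (horizontal axis) of each measured gene of the lipid roles (red), of other pathway lists (blue) and of cell type markers (green), with the median of each list as a black bar and the number of measured genes in brackets. Medians of cholesterol synthesis and mature adipocyte genes lie left of those of the lipid roles, at -0.64 and -0.85, and that of macrophage markers lies right at 0.85.

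The deposited table splits the count of each gene into a raw and a repeat-distributed column, which were added for every value above. For the values of 1 column alone, that column was scaled to its own total in each library. The raw column held 21.9% of all floxed and 24.4% of all PreASKO counts. The log2 ratio of the sum can therefore lie outside those of both columns, as for Scd2, where it was -1.08. Read separately in this way, both columns were lower in the PreASKO library for 26 of the 46 measured members. Both were higher for 3, and they pointed in opposite directions for 13. Of all 13684 measured genes, both columns were lower for 4044 and pointed in opposite directions for 4376. Opposite directions are therefore common in this table and not particular to the members. The 4 other members, Acly, Fabp5, Lpin1 and Acsl3, had 0 raw counts in both libraries. For 28 members the raw column held under 5% of the counts in both libraries. The members with large differences were not all alike in this respect. Gpd1 was lower in both columns, at log2 ratios of -2.22 in the raw and -1.80 in the repeat-distributed column. Scd2 was lower in both as well, at -1.18 and -1.40. Fasn, by contrast, had a log2 ratio of -0.047 in the raw column, which held 12.4% and 24.4% of its counts in floxed and PreASKO, and of -1.03 in the other. Fads3 had log2 ratios of 0.054 and -1.15, with 45.8% and 70.3% of its counts in the raw column, so its lower sum rests on the repeat-distributed column alone. Lipe had -0.05 and -0.86 on the same scale, with only 0.145% and 0.230% of its counts raw. Plin4 was higher in both, at 1.12 and 0.86. The raw column alone would also reverse the direction of Me1, Acsl4, Acsl5, Lpin2, Plin2, Pnpla2 and Abhd5, and among these its share was highest for Acsl5, at 9.07% and 7.61% of the counts. Some of these reversals rest on few raw counts: 0 and 2 for Me1 and for Abhd5, 2 and 2 for Pnpla2, 20 and 12 for Lpin2, 24 and 15 for Plin2. For Plin2 the reversal arises only because the raw column is scaled to its own total and not to that of the library. The raw column pointed the other way too for 4 members whose ratio had an interval including 1, namely Pck1, Slc27a1, Lpin3 and Bscl2. It held 56.0% and 85.5% of the counts of Pck1, but only 2 and 1 counts of Lpin3. Among the 13 members whose raw column held at least 40% of the floxed count, 12 were lower, with a median of -0.40.

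**Figure D5:**
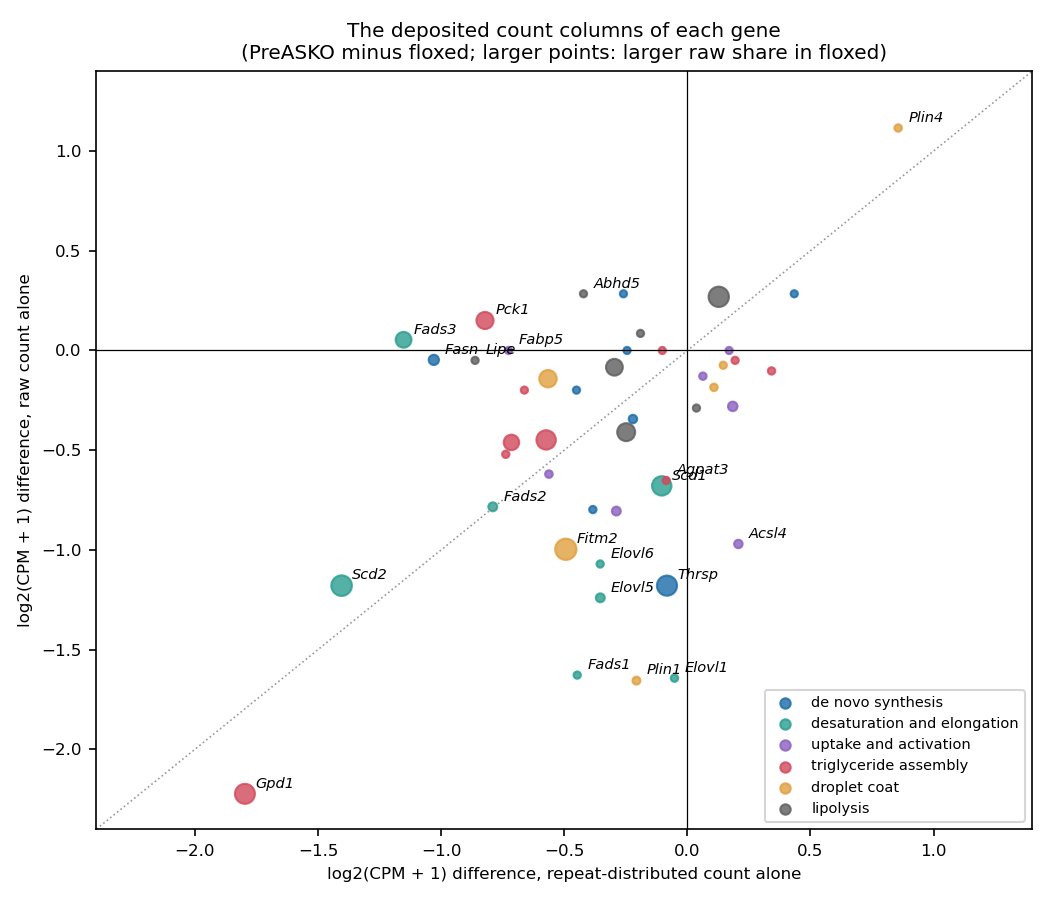
Log2(CPM + 1) difference, PreASKO minus floxed, computed from the repeat-distributed count alone (horizontal axis) and from the raw count alone (vertical axis) for the 46 measured lipid genes, coloured by role, with larger points where the raw column held a larger share of the floxed count. Gpd1 and Scd2 lie low on both axes and Plin4 high on both, while Fasn and Fads3 lie near 0 on the vertical axis at -0.047 and 0.054.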

How the data were processed

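Polyadenylated RNA was sequenced from 1 pooled library per genotype. The submitters' processing notes name the build mm10. Not given in the sources used here were aligner, counter, gene models and strandedness. The authors deposited, per the file headers, a raw count and a repeat-distributed count (treated as an estimated count) for each gene and library, and a fold ratio of PreASKO over floxed whose normalization is not stated. How reads were divided between the columns is not stated.

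Both counts were added and scaled to the library total as CPM. Where a column was read alone, it was scaled to the total of that column in the library. The sum was used because the authors' deposited fold is a near-constant multiple of its ratio: 97.9% of 11967 genes with 100 or more counts per library were within 5% of the median multiple, 1.68, against 69.9% for the repeat-distributed and 14.8% for the raw count alone. Rows sharing an Entrez ID were summed for 21 IDs. Of 23647 genes, 22146 matched RefSeq on GRCm38.p6, whose chromosomes mm10 shares.

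Differences were taken on the log2(CPM + 1) scale, which shrinks those of low genes, over 13684 genes whose mean reached 1 CPM. Plain CPM ratios carry exact 95% Clopper-Pearson intervals and levels exact 95% Poisson intervals, on rounded counts (scipy 1.17.1). Reads without molecular identifiers are not independent molecules, so intervals and the floor of 3 counts cover counting error only. The procedure was run on summed counts simulated with counting error alone. That simulation cannot show the spread between animals or bear on the separate count columns. With 1 library per genotype there is no p-value, and the 2-fold cutoff is that of the design text. The genes named are all members, then the 3 largest log2 ratios of each pathway list among genes averaging 5 CPM or more, with locations for the leading members. The members, lists and rules were chosen with earlier results of these data known. Alternatives used edgeR 4.0.16 (TMM) and DESeq2 1.42.0 (size factors) for scaling only. List genes without a row were not analysed here. A gene that the naming rule selects is not reported here.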

Additional observations from a re-analysis of the deposited data

How the results depend on the processing

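Against 35 of 46 members lower, the count was 34 or 35 under the pseudocounts, scalings and count columns tried. The fold of the authors' deposited table gave 34. Other minimum levels change the number of members, with 31 of 40 lower at a mean of at least 5 CPM and 36 of 50 without a minimum. Members at least 2-fold lower numbered 2, against 8 with the raw count alone, 4 with the repeat-distributed count alone, 11 at a 1.5-fold and 1 at a 3-fold cutoff, and members at least 2-fold higher 0, against 1 with the raw count alone and 1 at a 1.5-fold cutoff. Among all measured genes, 208 were at least 2-fold lower in the main measure, 720 by raw counts and 239 by repeat-distributed counts. At least 2-fold higher were 289, 343 and 296 genes in that order. The number of calls therefore rose among all genes too, most for lower genes in the raw column. The cutoffs change the ratio required, and for the columns the cause was not tested. The median of the members was -0.30, and -0.36 with a mean of at least 5 CPM, which drops 6 members. With the raw count alone, uptake and activation had 5 lower members in place of 3 and a median of -0.28, the droplet coat 5 in place of 3 and fatty acid oxidation 6 in place of 10. Among members whose counting interval excludes 1, the same column reversed Me1 (0.28), Fads3 (0.054), Acsl4 (-0.97), Acsl5 (-0.28), Lpin2 (-0.10), Plin2 (-0.074), Pnpla2 (0.086) and Abhd5 (0.28), and of these Fads3 alone had over 10% of its counts there. Me1 and Abhd5 had 0 raw counts in floxed and 2 in PreASKO, and Pnpla2 had 2 in each. Plin2 had 24 and 15, and its reversal arises only from scaling the raw column to its own total. Pck1, Slc27a1, Lpin3 and Bscl2, whose intervals include 1, changed sign as well, and Pck1 had 56.0% and 85.5% of its counts in that column. Of 46 members, 12 stayed within their counting interval with the raw count alone, 30 with the repeat-distributed count alone, 42 with a pseudocount of 5, and 44 with TMM or DESeq2 scaling. No paired analysis was possible because each genotype had 1 library, and no replicate could be left out for the same reason. Depth limits the members under 5 CPM, where 1 CPM is 61.8 counts in floxed and 37.6 in PreASKO.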
